A study of Mus musculus with 3 samples.

Results

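The 6 connexin genes Gja1, Gja4, Gja5, Gjb1, Gjb2 and Gjc1, of 24091 genes listed for each library, were followed across 3 libraries of sorted cells from the mouse large intestine. They were taken by their symbols and fall into 4 genes known from vessels (Gja1, Gja4, Gja5 and Gjc1) and 2 known from epithelia (Gjb1 and Gjb2). All 3 libraries belong to 1 group, labelled as lymphatic endothelial cells of C57BL/6 mice, from capillaries and collecting vessels, and sorted on surface proteins that included CD31, podoplanin and LYVE1. No treatment, genotype or age is given in the sample labels, and nothing there says whether the libraries came from separate animals, so their spread may be technical. Values are TPM, an abundance per unit of transcript length and library size, and means are given ± SD over the 3 libraries (n = 3).

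Connexins are membrane proteins that assemble into rings, and rings of neighbouring cells dock to form gap junctions, channels that pass ions and small molecules from cell to cell. Endothelium couples through Cx37, Cx40 and Cx43, of which Cx37 and Cx43 are needed for lymphatic valves to form, while smooth muscle uses Cx43 and Cx45. Cx32 and Cx26 couple cells of glands, liver and other epithelia. The letters a, b and c in the gene symbols name the alpha, beta and gamma subfamilies.

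The label was checked against marker genes first. All 6 lymphatic markers (Lyve1, Flt4, Mmrn1, Reln, Prox1 and Pdpn) were at a TPM of 1 or more in each of the 3 libraries, as 53.4% of all genes listed were. So were all markers of the epithelial, goblet, colonocyte, blood endothelial, pan-endothelial, smooth muscle and pericyte, fibroblast and macrophage lists. This count therefore does not single out lymphatic cells. The lymphatic markers summed to 1453, 1524 and 808 TPM in replicates 1, 2 and 3. Their means ran from 3.58 TPM for Prox1 to 490 TPM for Lyve1. Markers of other cells were present as well, and those of epithelium had larger sums. The 6 epithelial markers summed to between 9027 and 10282 TPM. The 4 goblet markers summed to between 8896 and 11889 TPM and the 3 colonocyte markers to between 3127 and 6086 TPM. Each of these 3 sums was above the lymphatic sum in every library. The 7 blood endothelial markers summed to between 624 and 735 TPM and the 8 smooth muscle and pericyte markers to between 166 and 369 TPM. The 7 fibroblast markers summed to between 124 and 448 TPM and the 5 macrophage markers to between 109 and 340 TPM. No marker in any of the 13 lists was at 0 in all libraries. A level in such RNA does not assign a connexin to a cell, and fewer cells of a type and less RNA per cell cannot be told apart.

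The sequence just before the start of transcription is shown for the pairs of members with the most alike values across the libraries (Gja1 with Gja4, and Gjb1 with Gjb2). Sequences are the 250 bases before the annotated start, from RefSeq on GRCm38.p6, the assembly of mm10, written 5′ to 3′ on the strand of the gene. They lie at chr10:56377050-56377299 (plus strand) for Gja1, chr4:127314040-127314289 (minus strand) for Gja4, chrX:101376985-101377234 (plus strand) for the second of 4 annotated Gjb1 starts and chr14:57104703-57104952 (minus strand) for Gjb2. Capitals mark matches on either strand to 8 short motifs.
Gja1: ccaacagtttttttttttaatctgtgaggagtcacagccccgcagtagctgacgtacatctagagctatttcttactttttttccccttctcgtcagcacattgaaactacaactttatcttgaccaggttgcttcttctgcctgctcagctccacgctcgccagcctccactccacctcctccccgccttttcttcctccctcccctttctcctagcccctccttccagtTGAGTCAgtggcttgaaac
Gja4: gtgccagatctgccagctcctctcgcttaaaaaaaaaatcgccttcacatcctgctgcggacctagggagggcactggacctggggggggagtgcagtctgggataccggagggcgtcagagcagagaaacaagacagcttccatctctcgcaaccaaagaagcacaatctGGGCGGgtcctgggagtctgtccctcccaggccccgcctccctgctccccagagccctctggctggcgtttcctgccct
Gjb1: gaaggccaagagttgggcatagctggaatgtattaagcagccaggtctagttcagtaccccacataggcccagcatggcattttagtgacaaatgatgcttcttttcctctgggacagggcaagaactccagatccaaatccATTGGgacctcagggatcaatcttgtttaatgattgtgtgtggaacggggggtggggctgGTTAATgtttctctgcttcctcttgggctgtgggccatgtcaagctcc
Gjb2: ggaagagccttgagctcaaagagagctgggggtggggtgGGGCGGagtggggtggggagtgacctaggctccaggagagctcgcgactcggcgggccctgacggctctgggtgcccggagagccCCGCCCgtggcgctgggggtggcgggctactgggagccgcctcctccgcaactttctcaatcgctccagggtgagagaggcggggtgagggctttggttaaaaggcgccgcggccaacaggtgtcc

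The motifs searched were the GC box (GGGCGG), the CCAAT box (CCAAT), the TATA box (TATAAA), the AP-1 site (TGANTCA), a core of the HNF1 site (GTTAAT), and SOX (ACAAAG), FOX (TGTTTAC) and ETS (CGGAAG) motifs. Gja1 held 1 match, the AP-1 letters at 19 bases before the start, which 6.75% of the 32851 RefSeq promoter windows of this length also hold. Gja4 held 1 GC box and Gjb2 held 2, and this motif occurs in 32.7% of windows. The Gjb1 window held a CCAAT box, as 33.8% of windows do, and the HNF1 core at 48 bases before the start, as 6.43% do. The second start was the only Gjb1 start with the HNF1 core, and 6.43% is a share of single windows, not of genes with several starts. The first Gjb1 start had 1 CCAAT box and 1 SOX match, the third had no match, and the fourth had 3 GC boxes, a TATA box, a SOX match and an ETS match that overlaps a GC box. Gja5, whose window is not shown, had 1 GC box and 1 SOX match. Base composition ranged from 40.4% G and C at the first Gjb1 start to 69.2% at Gjb2, around a median of 52.4% over all windows. Promoter entries matched 5 of the 6 members, all but Gjc1. A match is a description of letters, not a site.

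The members share a compact gene structure. In GENCODE M21, all 6 have a transcript whose whole coding sequence lies in 1 exon, and the other exons hold no coding sequence. These coding sequences run from 226 codons in Gjb2 to 396 in Gjc1, with 283 in Gjb1, 333 in Gja4, 358 in Gja5 and 382 in Gja1. A second Gja5 model spreads 368 codons over 2 coding exons. No string of 31 bases in these coding sequences occurred in an annotated transcript of any other gene, so the coding parts are not shared with a near-identical copy. An antisense gene, 4930573H18Rik, overlaps Gja5, and whether the counting used strand is not given in the sources used here.

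Of the 6 members, 5 (all except Gja5) reached a TPM of 1 in all 3 libraries, a level that 53.4% of all genes listed reached. The members had a median of 16.6 TPM, against 2.48 over all genes and 17.0 over the genes at a TPM of 1 or more in every library. Gjb1 was highest and Gja5 lowest, and the 5 at that level lay between percentile 81.4 of those expressed genes, for Gjb1, and percentile 17.3, for Gjc1.

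**Figure D1:**
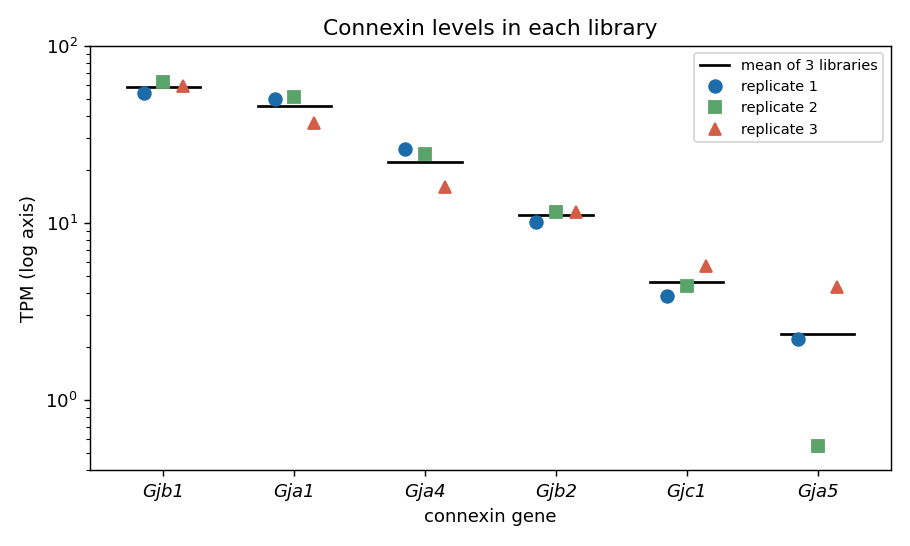
TPM on a log axis for each of the 6 connexin genes, ordered by mean, with 1 point per library and a bar at the mean of the 3 libraries. Gjb1 and Gjb2 each vary little across libraries, Gja1 and Gja4 are lowest in replicate 3, and Gja5 spans 0.548 to 4.33 TPM.

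Gja1 encodes Cx43, the connexin found most widely in endothelium, muscle and connective tissue. Gja1 (Entrez 14609, chromosome 10, 56377300 to 56390419) stood at 49.9, 51.6 and 36.6 TPM in replicates 1, 2 and 3. Its mean was 46.0 ± 8.23 TPM. Replicate 3 was the low library, and replicates 1 and 2 were close.

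Gja4 encodes Cx37, which in lymphatics marks the forming and mature valve. Gja4 (Entrez 14612, chromosome 4, 127311420 to 127314039) stood at 26.1, 24.6 and 15.9 TPM, with a mean of 22.2 ± 5.52. The low library was again replicate 3. The ratio of Gja1 to Gja4 was 1.91, 2.09 and 2.30, so Gja1 lay near 2.10-fold above Gja4 in every library (SD 0.194). Both genes varied more than most genes of like level, since the SD of log2(TPM + 1) was at percentile 80.0 of its expression bin for Gja1 and at 87.5 for Gja4.

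Summed lymphatic markers were also lowest in replicate 3, as given above, and the 4 pan-endothelial markers (Cldn5, Pecam1, Cdh5 and Egfl7) summed to 803, 678 and 501 TPM. Their part in the lower Gja1 and Gja4 of replicate 3 was not tested. Of the 5 members at a TPM of 1 in every library, 2 had their lowest value in replicate 3, as 22.9% of all genes at that level did, and 2 (Gjb2 and Gjc1) had their highest value there, as 40.5% did.

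Gja5 encodes Cx40, a connexin of arterial endothelium and of the conduction system of the heart. Gja5 (Entrez 14613, chromosome 3, 97032402 to 97053634) was the lowest and most variable member at 2.20, 0.548 and 4.33 TPM, a mean of 2.36 ± 1.89. Replicate 2 was far below the other libraries, the highest value was 7.89-fold the lowest, and the SD of log2(TPM + 1) was at percentile 95 of its bin. From the regular steps of low TPM values, these levels stand for about 208, 45.6 and 330 fragments, an estimate that carries no interval. The mean was 1.37 TPM without replicate 3 and 3.26 TPM without replicate 2. The ratio of Gja4 to Gja5 was accordingly unstable, at 11.9, 45.0 and 3.68.

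Gjc1 encodes Cx45, a connexin of smooth muscle and of early vessels. Gjc1 (Entrez 14615, chromosome 11, 102799477 to 102819686) stood at 3.84, 4.42 and 5.72 TPM, a mean of 4.66 ± 0.962. Replicate 3 was the high library, the reverse of Gja1 and Gja4. The smooth muscle and pericyte markers summed to 202, 166 and 369 TPM in the same libraries. The fibroblast markers summed to 182, 124 and 448 TPM and the macrophage markers to 164, 109 and 340 TPM. Of the 13 marker lists, 4 had sums lowest in replicate 2 and highest in replicate 3, as Gja5 was, namely these 3 lists and that of enteric neurons and glia (8.10, 4.76 and 11.2 TPM). Another 5 lists had sums lowest in replicate 1 and highest in replicate 3, as Gjc1 was, namely the interstitial cell of Cajal (40.5, 57.4 and 68.9 TPM), lymphocyte (3.71, 4.33 and 10.0 TPM), epithelial, colonocyte and arterial lists. The 5 arterial markers (Sox17, Gkn3, Efnb2, Sema3g and Bmx) summed to 38.1, 46.0 and 52.5 TPM, most of it from Efnb2 (21.7, 32.7 and 32.6 TPM). Their median was 3.94, 2.11 and 6.16 TPM, which has the order of Gja5. The part of these cells in the values of Gja5 and Gjc1 was not tested. The low library of Gjc1 depends on the scaling, as described below.

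Gjb1 encodes Cx32, the gap junction protein of liver and gland epithelium. Gjb1 (Entrez 14618, chromosome X, 101376376 to 101385629) stood at 54.5, 62.2 and 59.6 TPM, a mean of 58.8 ± 3.94. It was the most abundant connexin in every library, and its largest value was 1.14-fold its smallest. Its SD of log2(TPM + 1) was at percentile 33.4 for its level, and that of Gjb2, described next, at percentile 12.9.

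Gjb2 encodes Cx26, a partner of Cx32 in many epithelia. Gjb2 (Entrez 14619, chromosome 14, 57098602 to 57104702) stood at 10.1, 11.5 and 11.5 TPM, a mean of 11.0 ± 0.762. The ratio of Gjb1 to Gjb2 held at 5.37, 5.43 and 5.20, a mean of 5.33 ± 0.121. The epithelial markers summed to 9027, 9731 and 10282 TPM, lowest in replicate 1 like both Gjb genes, and 5 of the 6 were lowest there, or 2 of the 6 with the scaling described next.

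Libraries differed in overall level. Centred on each gene, the median log2(TPM + 1) of all expressed genes was -0.13 in replicate 1, 0.08 in replicate 2 and 0.06 in replicate 3, and Gjb1 (-0.11, 0.08 and 0.02) and Gjb2 (-0.11, 0.05 and 0.05) tracked it. Scaled by the median of ratios, which removes such an offset, Gjb1 was at 60.4, 58.8 and 56.1 and Gjb2 at 11.3, 10.8 and 10.8. The order of libraries for the Gjb genes thus turned with the scaling. The low library of Gja1 (55.4, 48.8 and 34.4) and Gja4 (29.0, 23.3 and 15.0) remained replicate 3 with this scaling, and the high library of Gja5 (2.44, 0.518 and 4.07) and Gjc1 (4.26, 4.18 and 5.38) remained replicate 3 too. The low library of Gjc1 moved from replicate 1 to replicate 2, so with this scaling Gjc1 had the order of Gja5.

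**Figure D2:**
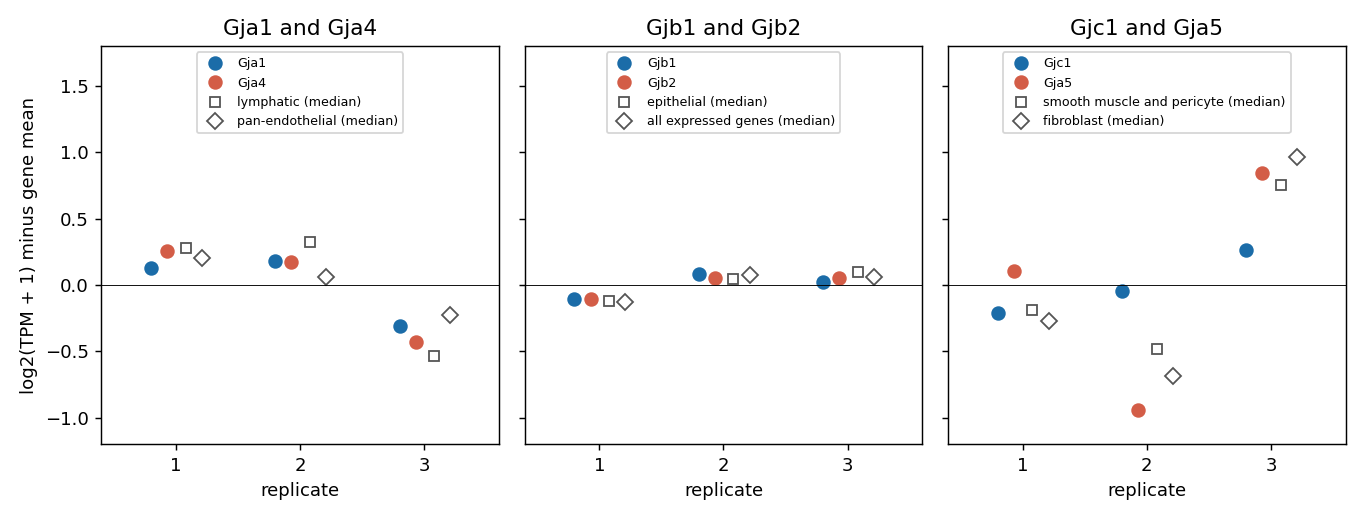
log2(TPM + 1) minus the mean of each gene over the 3 libraries, by replicate, for pairs of connexin genes (filled points) and for the medians of marker lists or of all expressed genes (open points), the lists being chosen after their values were seen. Gja1 and Gja4 are at -0.31 and -0.43 in replicate 3, the Gjb genes stay within 0.11 of their mean, and Gja5 ranges from -0.94 in replicate 2 to 0.84 in replicate 3.

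Likeness between genes was measured as the Euclidean distance between these centred profiles over the 3 libraries, for 13605 other genes of mean TPM 1 or more. With 3 libraries many genes lie close to any profile, so the share of genes as near is given with each distance. For Gja4, the nearest of the marker genes were Bmx (0.05, with 0.0809% of genes as near), Flt4 (0.09, 0.345%) and Kcnj8 (0.11, 0.529%). Bmx encodes a kinase of arterial endothelium, Flt4 encodes the lymphatic receptor VEGFR3, and Kcnj8 encodes a potassium channel of pericytes. Kcnj8 is the only 1 of the 8 smooth muscle and pericyte markers that was lowest in replicate 3, and the other 7 were highest there. Bmx is likewise the only 1 of the 5 arterial markers that was lowest in replicate 3, and 3 others of that list were highest there. Flt4 itself stood at 88.7, 81.7 and 50.2 TPM.

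For Gja1, the nearest marker genes were Bmx (0.13, 1.88%), Kcnj8 (0.15, 2.63%) and the endothelial cadherin gene Cdh5 (0.23, 6.54%). For Gja5 they were Sema3g (0.13, 0.0221%), a semaphorin gene of arteries, then Lyz2 (0.22, 0.103%) of macrophages and Acta2 (0.24, 0.147%), the smooth muscle actin gene. Sema3g stood at 3.94, 1.55 and 6.75 TPM, lowest in replicate 2 and highest in replicate 3 like Gja5. Only 3 genes lay as near to Gja5 as Sema3g did, that gene included.

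For Gjc1, the nearest were Cnn1 (0.05, 0.463%), a contractile protein gene of smooth muscle, and Kit (0.08, 1.85%), which encodes a receptor of interstitial cells of Cajal. Cnn1 stood at 13.0, 14.04 and 17.8 TPM, highest in replicate 3 like Gjc1. In TPM, it was the only 1 of the 8 smooth muscle and pericyte markers lowest in replicate 1, as Gjc1 was. Replicate 2 was the low library of 6 of these markers. For both Gjb1 and Gjb2 the nearest were Cldn7, Epcam and Krt8, which are epithelial genes. Cldn7 lay at 0.04 from each, but 2.48% of genes were as near to Gjb1 and 2.87% to Gjb2, and these profiles follow the overall level of the libraries. Between members, the smallest distances were 0.04 for Gjb1 and Gjb2 (3.10% of genes as near to Gjb1) and 0.17 for Gja1 and Gja4 (3.50% as near to Gja1). Gja5 was far from every other member, at distances of 1.11 to 1.70.

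In the order of mean level, Gjb1, Gja1, Gja4, Gjb2, Gjc1 and Gja5, the higher gene of each of the 5 neighbouring pairs was above the lower in 3 of 3 libraries. This order was taken from the same 3 libraries, which favours positive steps. The ranges over the libraries did not overlap in 4 pairs, and those of Gjc1 and Gja5 did. The narrowest step was that from Gjb1 to Gja1, 0.36 ± 0.30 on the log2(TPM + 1) scale, and it was 0.19 without replicate 3. The step from Gja1 to Gja4 was 1.03 ± 0.12, that from Gja4 to Gjb2 was 0.92 ± 0.44 and that from Gjb2 to Gjc1 was 1.10 ± 0.18. The step from Gjc1 to Gja5 was 0.91 ± 0.79, and 0.47 without replicate 2. The exact two-sided sign-flip permutation test gave p = 0.25 for all 5 pairs, also after Benjamini-Hochberg adjustment, which is the smallest value that 3 libraries allow.

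Vascular and epithelial members together contributed 147, 155 and 134 TPM. The 4 vascular members summed to 82.1, 81.2 and 62.5 TPM and the 2 epithelial members to 64.6, 73.6 and 71.1 TPM. The Gjb genes made up 44.0%, 47.6% and 53.2% of the members' TPM, a mean of 48.3 ± 4.63%, so vascular members held the larger sum in replicates 1 and 2 and epithelial members in replicate 3. Per gene the balance was different. The mean log2(TPM + 1) of the vascular members minus that of the epithelial members was -1.04, -1.44 and -1.16, a mean of -1.22 ± 0.21, because Gja5 and Gjc1 were low. This difference is a description, since the members were chosen, and it carries no p.

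Other connexins widened the family. Of all 20 connexin genes, 8 were at a TPM of 1 or more throughout, beside the 53.4% of all genes listed, and 10 were below it throughout. The members supplied 73.8%, 70.7% and 66.5% of all connexin TPM. With all Gjb genes of the family counted, the beta subfamily took 51.6%, 56.4% and 62.8% of connexin TPM.

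Gjc3 (1.90 ± 0.531 TPM) was also at a TPM of 1 or more throughout, and Gjb5 (1.71 ± 0.649) did so in 2. Gjd3 (0.515 ± 0.119) and Gje1 (0.202 ± 0.155) were lower. Gja6, Gjb6, Gja3 and Gjd2 had means between 0.0216 and 0.0458 TPM, and Gja10 and Gjd4 were listed at 0 in all libraries. Pannexins form related membrane channels that do not usually dock between cells. Panx1 stood at 20.9, 20.9 and 23.5 TPM, near the level of Gja4, while Panx2 averaged 0.0551 TPM and Panx3 was listed at 0.

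**Figure D3:**
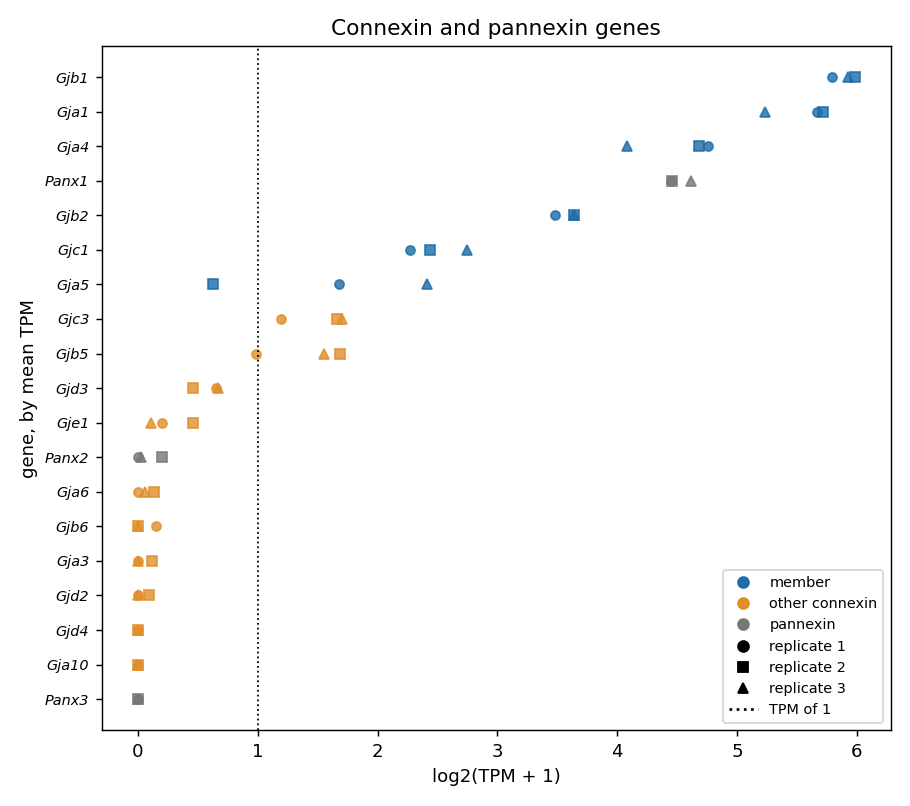
log2(TPM + 1) of 16 connexin and 3 pannexin genes, ordered by mean TPM, with 1 point per library and a dotted line at a TPM of 1. Gjb1 and Gja1 lead, Gja4 lies beside Panx1, and 8 of these connexins lie wholly left of the line.

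Connexin genes can be neighbours on a chromosome. On chromosome 14, Gjb2 lies between Gja3 (57034460 to 57058030), 40571 bases away, and Gjb6 (57123301 to 57133611), 18598 bases away, with no other coding gene between them. Gjb2 averaged 11.0 TPM, while Gja3 (0, 0.0846 and 0 TPM) and Gjb6 (0.113, 0 and 0 TPM) were each at 0 in 2 libraries. Gjb6 encodes Cx30, the partner of Cx26 in the inner ear, and Gja3 a connexin of the lens.

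**Figure D4:**
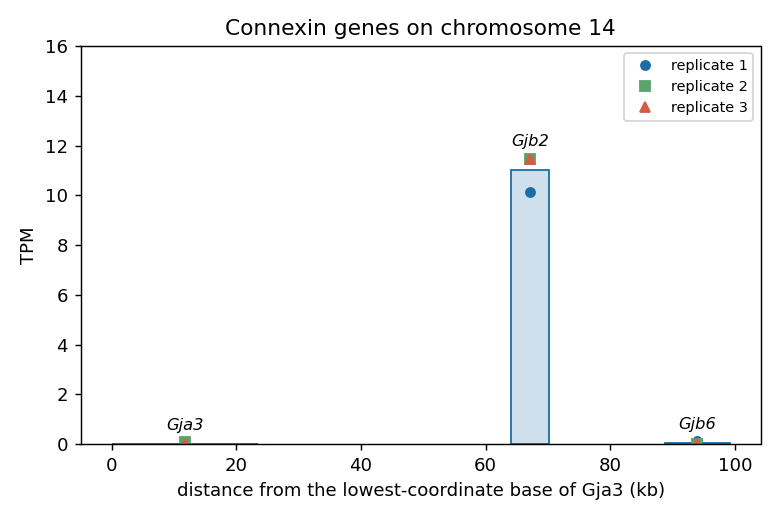
TPM of 3 neighbouring connexin genes on chromosome 14, against the distance from the lowest-coordinate base of Gja3 in kb. Bars span the gene and reach the mean of 3 libraries, points are the libraries, and Gjb2 stands at 11.0 TPM between 2 genes near 0.

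Proteins that bind, move or modify connexins were examined from a list of 16 genes. All 16 were at a TPM of 1 or more throughout, as 53.4% of all genes listed were. The most abundant were Mapk3 (350 ± 30.5 TPM), a kinase that phosphorylates Cx43, Tjp3 (146 ± 29.5 TPM), which encodes the tight junction scaffold ZO-3, and Nedd4 (107 ± 23.4 TPM), a ubiquitin ligase that acts on Cx43. These genes are not specific to vessels.

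Of 17 genes that regulate or accompany connexin expression in valves, arteries or epithelium, 16 were at that level throughout. The share over all genes listed was 53.4%. Klf4 (203 ± 45.4 TPM), a flow-responsive factor also made by epithelium, Hnf4a (195 ± 61.5 TPM), a factor of gut and liver epithelium, and Cdx2 (137 ± 25.7 TPM), the intestinal homeobox gene, led the list. Hey2, a Notch target of arteries, stayed below a TPM of 1 in every library (0.653 ± 0.383 TPM). Of the 8 valve regulators, 5 (Foxc1, Foxc2, Prox1, Nfatc1 and Itga9) were lowest in replicate 3, as Gja4 was, and 3 (Klf2, Klf4 and Gata2) were not. Klf2 and Klf4 were highest there. Of all genes at a TPM of 1 or more in every library, 22.9% were lowest in replicate 3. So were all 6 lymphatic and all 4 pan-endothelial markers, 2 of the 5 arterial regulators and 0 of the 4 epithelial regulators. The valve count is thus not particular to valve genes. FOXC2 and PROX1 are transcription factors that are needed for Cx37 in forming lymphatic valves, and they were picked after their values were seen. Foxc2 stood at 8.28, 7.21 and 4.30 TPM and Prox1 at 3.27, 4.82 and 2.63 TPM.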

How the data were processed

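RNA of sorted cells was measured by bulk RNA sequencing in 3 libraries of 1 group. The deposited tables hold TPM values that the authors computed, per the file headers, for genes named by Entrez ID and symbol. The submitters' processing notes name the build mm10, Cell Ranger 6.0.1 and HTSeq. The annotation and the TPM method are not given in the sources used here. The TPM of the libraries summed to 999939, 999907 and 999896, and TPM keeps no depth. Steps in low values of single-transcript genes of over 1000 bases put a TPM of 1 on 1000 effective bases at about 32.6, 28.6 and 26.2 fragments, with an agreement of the steps of 0.498, 0.481 and 0.521 on a scale where 1 is perfect.

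Values were taken as log2(TPM + 1). SD percentiles used 20 bins of mean level. Family, partner, regulator and marker lists, the members and the rule for named genes were chosen with earlier results of these data known. The rule names every member, connexin and pannexin, the 3 most abundant partners and regulators and any below a TPM of 1 throughout, and the 3 nearest marker genes of each member. Some genes that it names are not reported here. Ccn3 was matched by Entrez ID to its older symbol Nov. Gene coordinates are RefSeq's on GRCm38.p6, and exons are from GENCODE M21. The distance and spread steps were tested on simulated data. Alternatives were other pseudocounts, thresholds, scalings and leaving out each library. Computation used Python 3.11.15 with pandas 2.3.3 and numpy 2.4.6, and drawing used matplotlib 3.10.9. The permutation test was enumerated directly.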

Additional observations from a re-analysis of the deposited data

How the results depend on the processing

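With 1 group there was no test between conditions, and 3 libraries, whose source the labels do not separate, limit every SD. The vascular minus epithelial difference stayed negative under all 8 alternatives, from -1.40 ± 0.33 with a pseudocount of 0.1 to -1.10 ± 0.09 without replicate 2. It was negative in every library, so leaving out a library could not change its sign. Limiting it to members of mean TPM 1 or more kept all members and so left it at -1.22. The Gjb share of TPM was 48.3% over the members and 56.9% over all connexin genes, and 45.8% to 50.4% with a library left out. The number of members that reached the threshold in all libraries was 6 at a TPM of 0.5, 4 at a TPM of 5, and 6 without replicate 2, where Gja5 is lowest. For the 20 connexins it was 10 and 6 at these thresholds, and 8 or 9 in the other alternatives. The share of all genes was taken only for a TPM of 1 in all 3 libraries (53.4%). These counts therefore have no share of all genes to be read against. Of 50 alternatives for single genes and neighbouring ratios, 45 moved the value by under 1 SD and none changed a sign. The other 5 were means of all members except Gja5 after ribosomal protein genes and Mir6236 were left out and TPM rescaled, which by construction raised them, Gjb1 to 78.3 and Gja1 to 61.5. Much of this count was fixed in advance. Leaving out 1 of 3 libraries cannot move a mean by 1 SD, and a mean TPM cannot change sign.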
